A study of Homo sapiens with 12 samples.

Results

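Cyclosporine A (CSA) was compared with its solvent DMSO in cultured human podocytes, across all genes that passed a filter on low counts. The comparison used 6 of the 12 libraries of the series, 3 of CSA and 3 of DMSO. It covered 19784 of the 62262 genes in the deposited table. The cells were 1 conditionally immortalized podocyte line carrying a temperature-sensitive SV40 T gene, which was switched off by a period at the non-permissive temperature before treatment. All groups shared this line and this differentiation. CSA was given at 100 nM for 24 h, and the control cultures received DMSO for the same 24 h. The other groups, tacrolimus (TAC) and voclosporin (VCS), were given at the same dose and time and enter here as comparators of CSA. The labels number the libraries of each group 1 to 3, and the numbers enter the model as a block, so that each CSA library is set beside the DMSO library of its number. No label says what a number stands for, such as a day, a passage or a well, so p-values measure only the spread between these libraries.

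CSA is a cyclic peptide that binds cyclophilins, and the complex blocks calcineurin, the calcium-activated phosphatase that sends NFAT transcription factors to the nucleus. Podocytes are the kidney epithelial cells whose foot processes and slit diaphragms form the outer layer of the glomerular filter, and calcineurin in these cells is known to act on synaptopodin, an actin-associated protein. Beyond NFAT, several programs below are read through marker genes. ATF4 is made when the integrated stress response is active, and it switches on genes for amino acid uptake, amino acid synthesis and transfer RNA charging. The unfolded protein response raises chaperones of the endoplasmic reticulum. Interferon-stimulated genes encode antiviral proteins under the control of STAT and IRF factors.

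The line carried its podocyte label only in part at the RNA level. NPHS1, the gene of the slit diaphragm protein nephrin, had 3, 7 and 3 counts in DMSO and 6, 11 and 4 in CSA, and stayed under the filter. WT1, a regulator of podocyte fate, was at 0.73, 1.11 and 0.725 CPM, counts scaled per library size, in DMSO libraries 1 to 3 and at 1.09, 0.637 and 0.84 in CSA. SYNPO, which encodes synaptopodin, and ACTN4, an actin crosslinker of the foot process, were well measured and are given below. The 12 libraries held 28808213 to 36077072 counts, and the share of mitochondrial genes ran from 5.82 to 10.8% in the 6 libraries of CSA and DMSO. In every group the library numbered 3 held the highest mitochondrial share. In each numbered pair the share was lower in CSA than in DMSO, at 5.82 against 7.097%, 7.48 against 8.12% and 9.68 against 10.8%, and its part in the results below was not tested. Libraries of the same group differed beyond sampling noise in 37.8 to 63.2% of the better-counted genes, so none was a copy of another library. Those were the 15590 to 15907 genes per pair of libraries that passed a cut on summed counts. This comparison cannot tell separate cultures from repeated preparations of the same RNA.

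Few genes passed. Of 19784 genes, 6 (0.0303%) had an adjusted p under 0.05 in edgeR's quasi-likelihood test: 1 rose in CSA (0.00505%) and 5 fell (0.0253%). The 5 that fell were the surfactant protein genes SFTPA1 and SFTPA2, the basal keratin gene KRT5, and the interferon-stimulated genes IFI44L and IFITM1. The gene that rose was H2BC26, a histone H2B gene. At an unadjusted p under 0.05, without control of the false discovery rate, 2254 genes (11.4%) stood out, 1283 above DMSO (6.49%) and 971 below (4.91%). A true null would give 989.2 on average. The count rested on the block and on single libraries. It was 741 without the block, 947 of 20299 genes without DMSO 2 and 3145 of 20321 without CSA 2. The median log2 fold change over all genes was -0.0036, and 49.2% of genes lay above 0. The same-numbered libraries differed in 1 direction in all 3 pairs for 17.97% of genes upward and 17.6% downward. All CSA libraries lay above all DMSO libraries in 978 genes (4.94%) and below them in 975 (4.93%).

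**Figure D1:**
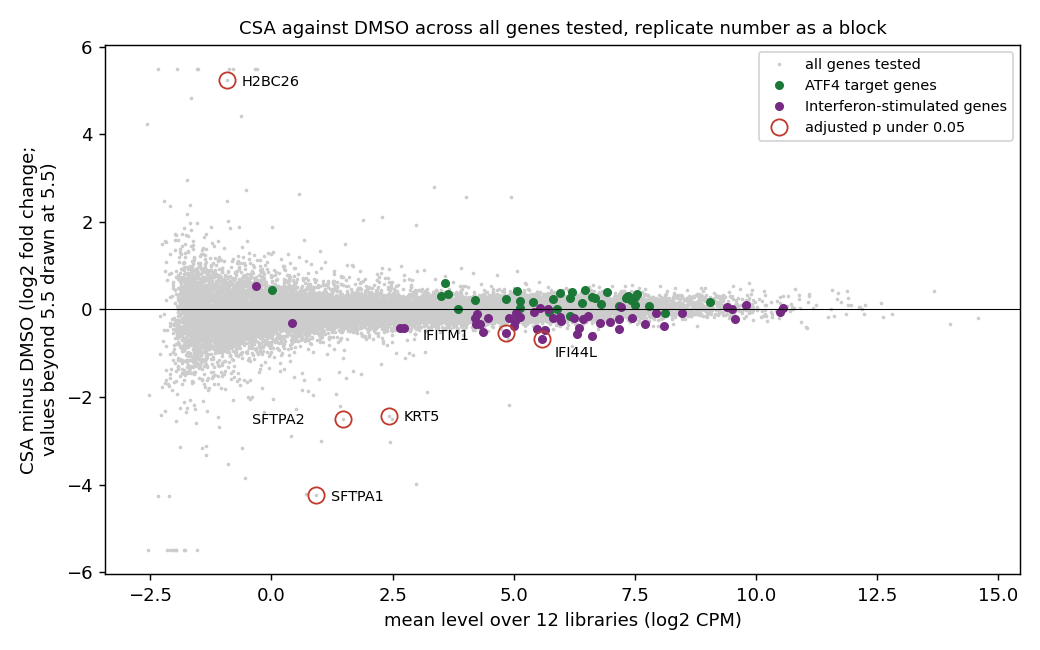
Log2 fold change of CSA over DMSO (y axis) against the mean log2 CPM over 12 libraries (x axis) for the 19784 genes tested, with the ATF4 target genes in green and the interferon-stimulated genes in purple. The 6 genes with an adjusted p under 0.05 are ringed. H2BC26, SFTPA1, SFTPA2 and KRT5 sit far from 0 at low mean levels, and IFI44L and IFITM1 sit closer to 0 at higher levels.

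IFI44L and IFITM1 were the members of the interferon list that passed the threshold, both lower in CSA. The promoters of this pair, and of representatives of the ATF4 and unfolded protein response lists, show the elements by which such genes are known to be controlled. They are given from RefSeq (GRCh38.p14), from 250 bases before to 50 bases after the gene start, 5′ to 3′ on the strand of the gene. The first lies at chr1:78620198-78620497 (plus strand), the next at chr11:313790-314089 (plus strand), the third at chr7:97872359-97872658 (minus strand) and the last at chr9:125241294-125241593 (minus strand). Capitals mark the matches searched for on both strands: in IFI44L and IFITM1 a core of the interferon-stimulated response element (GAAA, any 2 bases, GAAA), in ASNS a core of the C/EBP-ATF response element (TGATGNAA), and in HSPA5 the endoplasmic reticulum stress response element (CCAAT, any 9 bases, CCACG).
IFI44L promoter: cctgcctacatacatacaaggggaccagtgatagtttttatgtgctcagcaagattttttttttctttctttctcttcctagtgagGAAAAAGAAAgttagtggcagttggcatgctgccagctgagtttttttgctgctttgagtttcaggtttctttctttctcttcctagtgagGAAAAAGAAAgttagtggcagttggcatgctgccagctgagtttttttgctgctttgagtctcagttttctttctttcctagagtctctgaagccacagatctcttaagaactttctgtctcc
IFITM1 promoter: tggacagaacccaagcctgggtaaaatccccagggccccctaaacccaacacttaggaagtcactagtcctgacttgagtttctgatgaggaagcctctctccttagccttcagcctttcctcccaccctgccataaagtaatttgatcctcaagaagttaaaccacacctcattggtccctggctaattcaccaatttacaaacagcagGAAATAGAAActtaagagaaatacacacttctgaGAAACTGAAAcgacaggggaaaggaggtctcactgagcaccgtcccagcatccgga
ASNS promoter: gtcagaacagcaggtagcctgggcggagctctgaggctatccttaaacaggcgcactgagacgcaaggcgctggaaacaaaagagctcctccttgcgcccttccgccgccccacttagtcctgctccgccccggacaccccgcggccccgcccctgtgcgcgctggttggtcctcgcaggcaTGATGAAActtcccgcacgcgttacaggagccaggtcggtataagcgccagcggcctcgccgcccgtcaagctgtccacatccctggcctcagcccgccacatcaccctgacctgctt
HSPA5 promoter: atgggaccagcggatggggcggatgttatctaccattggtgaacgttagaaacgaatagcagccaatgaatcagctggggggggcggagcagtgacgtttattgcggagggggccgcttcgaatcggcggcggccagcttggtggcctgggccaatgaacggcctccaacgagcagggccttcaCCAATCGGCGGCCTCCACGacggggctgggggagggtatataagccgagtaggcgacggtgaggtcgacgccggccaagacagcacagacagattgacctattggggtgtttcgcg
Each of the IFI44L and IFITM1 windows held 2 matches. The interferon element was found in 21 of 37 interferon-stimulated genes with a promoter in the table (56.8%), against 2.92% of the 12917 promoters of tested genes. The ATF4 element was found in 8 of 30 ATF4 targets (26.7%) against 1.94%, and the stress element in 7 of 26 unfolded protein response genes (26.9%) against 0.124%. A match is a run of letters and not a measured binding site.

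IFI44L, an interferon-stimulated gene of the antiviral response on chromosome 1, was at 62.9, 73.1 and 50.8 CPM in DMSO libraries 1 to 3 and at 45.5, 41.0 and 30.4 CPM in CSA. All CSA libraries lay below all DMSO libraries, as in 4.93% of all genes, and each CSA library lay below its numbered partner. Its log2 fold change was -0.68 (SE 0.09, edgeR adjusted p = 0.0395), or 37.6% lower. IFITM1, a membrane protein that restricts virus entry, was at 35.9, 38.3 and 30.3 CPM in DMSO and at 28.6, 23.4 and 20.1 CPM in CSA, again without overlap. Its log2 fold change was -0.54 (SE 0.08, edgeR adjusted p = 0.0465), or 31.2% lower. IFITM1 shares 30.98% of its 31-base words with its neighbour IFITM2, so part of its counts could belong to that gene. Both calls rested on the block and on single libraries. With group as the only term the edgeR adjusted p was 0.939 for each gene, at log2 fold changes of -0.68 and -0.53. Leaving out 1 library at a time, IFITM1 passed only without CSA 1, and IFI44L passed only without CSA 1, TAC 1 or TAC 3. The edgeR adjusted p over these 12 omissions reached 0.466 for IFITM1 and 0.331 for IFI44L, while their log2 fold changes stayed within -0.63 to -0.47 and -0.76 to -0.59.

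The interferon list as a whole leaned the same way. Its members, like those of the other lists, were chosen with earlier results of these data known, so its shares are no independent check. Of 47 tested members 39 lay below 0 and 8 above, with a median log2 fold change of -0.21, against -0.0036 over all genes. Against the same DMSO libraries the list's median was -0.18 in TAC and -0.13 in VCS. IFI44L was at -0.38 in TAC and -0.49 in VCS, and IFITM1 at -0.42 and -0.26, all short of the threshold. In addition to the 2 called genes, 22 more were below DMSO at an unadjusted p under 0.05, so 24 of 47 (51.1%) stood out against 4.91% of all genes, and none stood out above. In 28 members (59.6%) all 3 numbered pairs pointed down, against 17.6% of all genes, and in none did all 3 point up. The pair medians were -0.15, -0.39 and -0.13, so the libraries numbered 2 showed the widest gap. Over the alternatives, DESeq2 aside, the list's median ran from -0.26 without the libraries numbered 3 to -0.147 without CSA 2. The members above 0 ran from 3 to 13. Without the block the median was -0.22, and the list's count at an unadjusted p was not taken in that fit. XAF1, a pro-apoptotic interferon target, was at 90.3, 101 and 111 CPM in DMSO and at 65.9, 66.9 and 70.9 in CSA (log2 fold change -0.56, edgeR adjusted p = 0.144). IFI27 was at 132, 129 and 86.2 CPM in DMSO and at 111, 76.7 and 47.5 in CSA, with overlap between the groups. OAS1, a sensor of double-stranded RNA, and BST2, which tethers virus particles to the cell, had log2 fold changes of -0.46 and -0.42 (edgeR adjusted p = 0.303 and 0.297). IRF9, a factor that drives such genes, was not called and had a log2 fold change of -0.16 (95% interval -0.31 to -0.01). RSAD2, an antiviral enzyme of low level here, lay above 0 at 0.53 (SE 0.39). Among members with the promoter element, 20 of 21 lay below 0 (median -0.30), and among the 16 without it 11 did (median -0.16). The same split gave medians of 0.27 with and 0.22 without the ATF4 element in the ATF4 list. For the stress element in the unfolded protein response list they were 0.19 with and 0.20 without. The part of these elements in the differences was not tested.

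**Figure D2:**
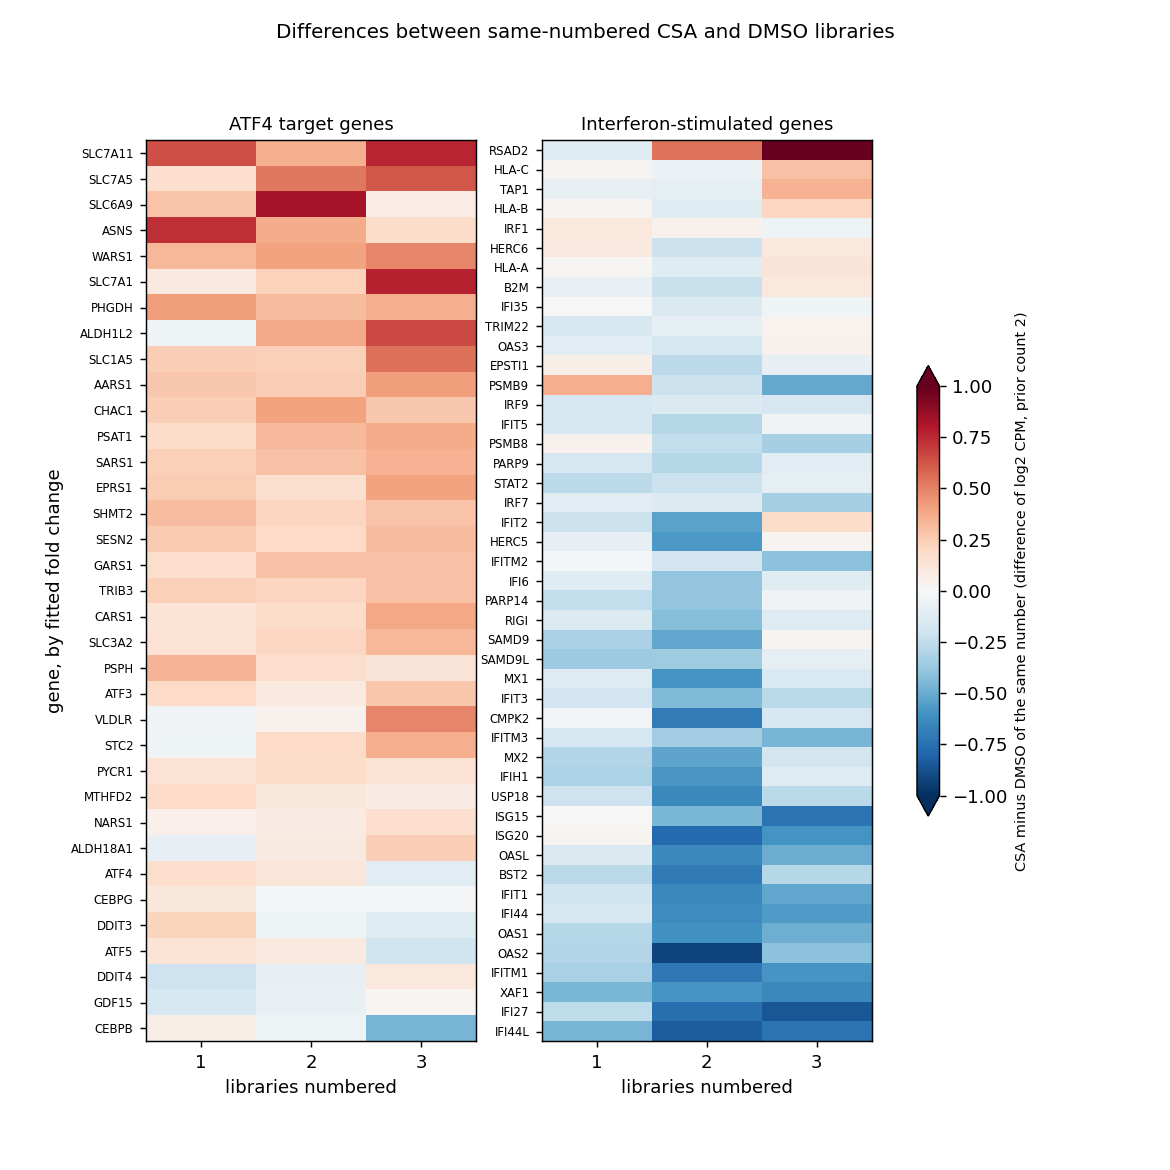
Difference of log2 CPM between each CSA library and the DMSO library of the same number (columns 1 to 3) for the 35 ATF4 target genes and 46 of the 47 interferon-stimulated genes tested (rows, ordered by fitted log2 fold change; red above and blue below 0, colors end at 1 and -1). Most rows on the left are red in all columns, most rows on the right are blue, and the blue is deepest in column 2.

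Genes switched on by ATF4 lay above DMSO, although none passed the test over all genes. Of 35 tested members 32 had a log2 fold change above 0 and 3 below, with a median of 0.25. At an unadjusted p under 0.05, 22 members (62.9%) lay above DMSO and none below, against 6.49% of all genes above. In 24 members (68.6%) all 3 numbered pairs pointed up, against 17.97% of all genes. The members were chosen with earlier results of these data known, so these shares are no independent check. The pair medians were 0.19, 0.20 and 0.29. Against the same DMSO libraries the list's median was 0.09 in TAC and 0.20 in VCS. WARS1, the tryptophanyl-tRNA synthetase, was at 66.7, 68.2 and 54.3 CPM in DMSO and at 84.1, 90.4 and 76.2 in CSA (log2 fold change 0.41, SE 0.07, edgeR adjusted p = 0.116). PHGDH, the first enzyme of serine synthesis, was at 49.0, 58.8 and 52.9 CPM in DMSO and at 65.6, 73.2 and 68.3 in CSA (log2 fold change 0.37, SE 0.06, edgeR adjusted p = 0.116). For these genes every CSA library was above every DMSO library, as in 4.94% of all genes. The same held for the cystine transporter SLC7A11, at 8.0, 11.4 and 7.48 CPM in DMSO against 12.6, 14.6 and 12.7 in CSA (edgeR adjusted p = 0.227).

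SLC1A5, a glutamine transporter, was at 176, 181 and 158 CPM in DMSO and at 209, 214 and 231 in CSA. ASNS, the asparagine synthetase whose promoter is printed above, was at 21.3, 33.5 and 30.99 CPM in DMSO and at 35.3, 43.2 and 35.3 in CSA, with a margin of under 2 CPM between the groups. Their log2 fold changes were 0.35 and 0.43 (edgeR adjusted p = 0.35 and 0.373). ADM2, an adrenomedullin-family peptide gene that is not on the list, was at 11.5, 10.9 and 11.1 CPM in DMSO and at 14.6, 18.4 and 19.1 in CSA (log2 fold change 0.63, SE 0.11, edgeR adjusted p = 0.116). The mRNA of ATF4 itself was at 227, 211 and 200 CPM in DMSO and at 257, 229 and 186 in CSA (log2 fold change 0.07, 95% interval -0.12 to 0.26). ATF4 is known to be controlled mainly in translation, which these libraries do not measure. CEBPB, a partner of ATF4, had a log2 fold change of -0.14 (SE 0.12).

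The unfolded protein response list leaned upward with a different pattern over the pairs. Of 30 members 26 lay above 0 (median 0.18), and 10 (33.3%) were above DMSO at an unadjusted p under 0.05, against 6.49% of all genes. The pair medians were -0.02, 0.08 and 0.38. DNAJB9, a co-chaperone of the endoplasmic reticulum, was at 19.8, 18.2 and 17.1 CPM in DMSO and at 25.8, 22.9 and 31.4 in CSA (log2 fold change 0.54, SE 0.11, edgeR adjusted p = 0.255). HSPA5, the main chaperone of that compartment, was at 749, 586 and 600 CPM in DMSO and at 780, 654 and 774 in CSA, and the groups overlapped. XBP1, a transcription factor of the response, had a log2 fold change of 0.23, and DERL2, a degradation factor, of -0.11. Without CSA 3 the list's median was 0.04 with 19 of 30 members above 0, so most of its size was gone without that library. The ATF4 median was 0.18 without CSA 3, with 31 of 35 members above 0.

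Matrix and adhesion genes were also highest in CSA 3 against its partner. Basement membrane genes had a median log2 fold change of 0.21, with 13 of 19 above 0, 8 above DMSO and 1 below at an unadjusted p under 0.05, against 6.49% and 4.91% of all genes. Interstitial matrix genes had a median of 0.22 (20 of 25 above 0), and focal adhesion and integrin genes a median of 0.20 (19 of 22 above 0, 11 above DMSO at an unadjusted p under 0.05, against 6.49% of all genes). None passed. The medians in pairs 1, 2 and 3 were -0.07, 0.20 and 0.52 for the basement membrane, -0.05, 0.17 and 0.47 for the interstitial matrix and 0.07, 0.15 and 0.42 for focal adhesions. Without CSA 3 they came to 0.06, 0.01 and 0.07. COL4A2, a chain of the basement membrane collagen, was at 2239, 1720 and 1799 CPM in DMSO and at 2274, 2161 and 2864 in CSA. COL1A1, the main fibrillar collagen chain, was at 3757, 3295 and 3947 CPM in DMSO and at 3684, 4114 and 5455 in CSA. LAMB3, a laminin chain of epithelial basement membranes, was above its numbered partner in every pair, at 75.6, 58.8 and 50.7 CPM in DMSO and 98.3, 71.0 and 79.0 in CSA (log2 fold change 0.44, SE 0.10, edgeR adjusted p = 0.351). TNC, the matricellular protein tenascin C, was at 159, 121 and 112 CPM in DMSO and at 184, 190 and 194 in CSA (edgeR adjusted p = 0.373). Its CSA libraries lay above all DMSO libraries, as in 4.94% of all genes.

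Genes of the podocyte list leaned upward, contractile actin genes less so, and none passed the test. In the slit diaphragm and podocyte list 20 of 24 tested members lay above 0 (median 0.13), 6 of them (25%) above DMSO at an unadjusted p under 0.05 against 6.49% of all genes. All 3 numbered pairs pointed up in 37.5% of them, against 17.97% of all genes. Without CSA 3 the median was 0.083, with 15 of 24 above 0. SYNPO was at 52.3, 41.9 and 44.8 CPM in DMSO and at 58.1, 54.3 and 67.3 in CSA (log2 fold change 0.38, SE 0.11, edgeR adjusted p = 0.4). Every CSA library lay above every DMSO library for SYNPO, as in 4.94% of all genes. ACTN4 was at 1490, 1358 and 1438 CPM in DMSO and at 1553, 1486 and 1675 in CSA (log2 fold change 0.14, 95% interval -0.01 to 0.29). MYH9, the non-muscle myosin heavy chain, had a log2 fold change of 0.42 (SE 0.11, edgeR adjusted p = 0.373), also without overlap. Contractile actin genes as a list had a median of 0.04, with 13 of 20 above 0, and of 0.087 with 16 above 0 without CSA 3. Their pair medians were 0.04, 0.14 and -0.03, and in pair 3 10 lay above 0 and 10 below. All 3 pairs pointed up in 8 of them (40.0%).

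**Figure D3:**
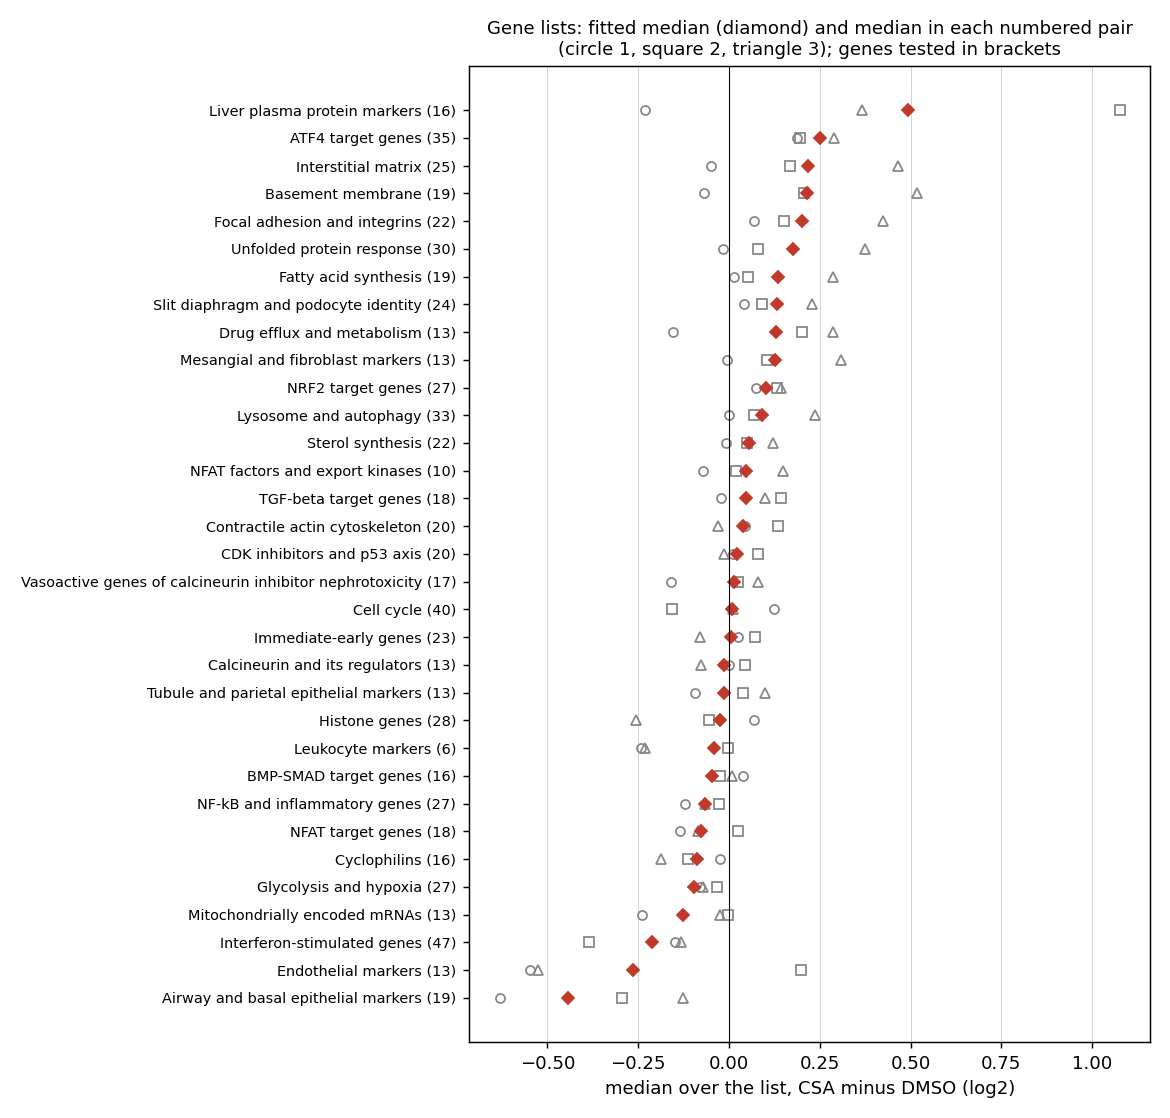
Median log2 difference of CSA over DMSO for each of 33 gene lists, fitted (red diamond) and in the pairs numbered 1 (circle), 2 (square) and 3 (triangle), with the number of genes tested in brackets. The 3 pairs lie close together for the ATF4 targets, while pair 3 lies to the right for matrix, adhesion and unfolded protein response genes and the liver, endothelial and airway markers spread widest.

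The direct circuit of the drug showed no gene past the threshold. Of 13 tested genes for calcineurin and its regulators 6 lay above 0 and 7 below (median -0.01), and none stood out even at an unadjusted p under 0.05. RCAN1, an inhibitor of calcineurin and a classical NFAT target, was at 167, 152 and 159 CPM in DMSO and at 159, 154 and 151 in CSA (log2 fold change -0.05, 95% interval -0.20 to 0.11). PPP3CA, a catalytic subunit, had a log2 fold change of 0.07 (95% interval -0.06 to 0.19). The 16 cyclophilin genes lay mostly below 0, 14 of them, with a median of -0.09 that ran from -0.16 without CSA 1 to -0.051 without DMSO 2. PPIA, which encodes the principal CSA-binding protein cyclophilin A, was at 1088, 1190 and 1171 CPM in DMSO and at 1084, 1107 and 864 in CSA, so that CSA 3 alone lay apart (log2 fold change -0.17, SE 0.10). PPIB, the cyclophilin of the secretory pathway, had a log2 fold change of -0.01 (SE 0.08). FKBP1A, the receptor of tacrolimus, differed by -0.10 (SE 0.09). The smallest p of the cyclophilins belonged to NKTR, at 188, 205 and 250 CPM in DMSO and 137, 177 and 198 in CSA (log2 fold change -0.33, edgeR adjusted p = 0.4).

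NFAT target genes went both ways. Of 18 tested 14 lay below 0 and 4 above (median -0.08), with 3 below and 2 above DMSO at an unadjusted p under 0.05, against 4.91% and 6.49% of all genes. CXCL8, a neutrophil chemokine, was at 185, 116 and 102 CPM in DMSO and at 137, 71.8 and 85.4 in CSA (log2 fold change -0.45, SE 0.12, edgeR adjusted p = 0.373). Each CSA library lay below its numbered partner although the groups overlapped. MYC, the growth transcription factor, went the other way at 40.7, 39.6 and 26.5 CPM in DMSO and 44.5, 48.8 and 34.9 in CSA (log2 fold change 0.27, edgeR adjusted p = 0.386). PTGS2, the inducible cyclooxygenase, had a log2 fold change of -0.07 (95% interval -0.49 to 0.35). In the broader inflammatory list of 27 genes 17 lay below 0 (median -0.07), with CXCL1 at a log2 fold change of -0.43 (SE 0.09, edgeR adjusted p = 0.297).

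Lists of other cell programs gave no called gene, with H2BC26 on the histone list as the exception. That gene was written first on its list, with earlier results of these data known. Lysosome and autophagy genes lay above 0 in 30 of 33 members with a median of 0.09, which came to 0.02 without CSA 3, and fatty acid synthesis genes in 18 of 19 (median 0.14, and 0.05 without CSA 3). LAMP1, a lysosomal membrane protein, was at 594, 520 and 565 CPM in DMSO and at 642, 595 and 819 in CSA. FASN, the fatty acid synthase, had a log2 fold change of 0.29 (SE 0.10, edgeR adjusted p = 0.407). Sterol synthesis (17 of 22 above 0, median 0.06) and NRF2 targets (20 of 27, median 0.10, and 0.0499 without DMSO 3) lay closer to 0. Cell cycle genes were divided, 22 above and 18 below (median 0.01), and their pair medians were 0.12, -0.16 and 0.01. The fitted median was -0.074 without CSA 1 and 0.085 without CSA 2. The transcripts encoded by mitochondrial DNA had a median of -0.13, and none of 13 stood out at an unadjusted p under 0.05. That median was 0.0213 without CSA 1 and -0.25 without CSA 2, so its sign rested on 1 library. Among vasoactive genes linked to the renal toxicity of calcineurin inhibitors 9 of 17 lay above 0 (median 0.01, and -0.056 without CSA 3). In that list EDN1, the precursor of the vasoconstrictor endothelin, had a log2 fold change of -0.03 (95% interval -0.18 to 0.13), and AGTR1, the angiotensin receptor, was at 0.486, 0.554 and 0.396 CPM in DMSO and at 1.15, 0.605 and 1.101 in CSA (edgeR adjusted p = 0.403).

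The genes with the strongest statistics are not podocyte genes. SFTPA1 and SFTPA2 encode surfactant protein A of lung alveoli, and KRT5 is a keratin of basal epithelial cells. SFTPA1 (chromosome 10) was at 4.26, 3.04 and 3.86 CPM in DMSO and at 0.265, 0.223 and 0.116 in CSA, 19-fold lower (log2 fold change -4.25, SE 0.38, edgeR adjusted p = 0.00191). The values came from 140, 99 and 117 counts in DMSO but 9, 7 and 4 in CSA, so the fold rests on few counts. SFTPA1 met the filter through DMSO and VCS, where it was high. SFTPA2, its near neighbour, was at 6.63, 2.95 and 3.82 CPM in DMSO and at 0.853, 1.05 and 0.464 in CSA (log2 fold change -2.49, SE 0.29, edgeR adjusted p = 0.0147). These paralogs share 32.8% of the 31-base words of SFTPA1, so counts could be split between them. KRT5 (chromosome 12) was at 12.9, 5.505 and 5.47 CPM in DMSO and at 1.32, 1.97 and 0.927 in CSA (log2 fold change -2.43, SE 0.29, edgeR adjusted p = 0.0147). No library of CSA overlapped with DMSO for these genes. SFTPA1 passed in all 12 omissions of a library. SFTPA2 did not pass without DMSO 1, DMSO 3 or CSA 1, nor KRT5 without DMSO 1 or DMSO 3 (edgeR adjusted p up to 0.134 for each). With group as the only term the edgeR adjusted p was 0.403 for SFTPA2 and 0.518 for KRT5. KRT14, the partner keratin of KRT5, was at 5.96, 1.72 and 1.71 CPM in DMSO and at 0.294, 0.287 and 0.435 in CSA and missed the threshold (log2 fold change -3.0, edgeR adjusted p = 0.0695).

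The airway and basal epithelial list went both ways. Its members were chosen with earlier results of these data known, and SFTPA1 and KRT5 were written first. Of 19 tested members 14 lay below 0 and 5 above (median -0.44). Past the threshold fell 3 of them, against 0.0253% of all genes, a count that is no independent check given this choice. The median was -0.72 without CSA 3 and -0.21 without DMSO 1. The summed level of the list was 92.5, 62.7 and 67.6 CPM in DMSO against 58.0, 57.2 and 57.7 in CSA. SFTPB, a further surfactant gene, was at 10.2, 6.95 and 7.35 CPM in DMSO and at 16.5, 15.5 and 9.56 in CSA, opposite to SFTPA1. Of the 22 listed genes 3 were not tested, and none was at 0 in all 6 libraries. Liver plasma protein genes stood apart in another way. All 16 had a fitted log2 fold change above 0 (median 0.49) and none stood out at an unadjusted p under 0.05, since the pairs went against each other: 0 of 16 lay above 0 in pair 1, 16 in pair 2 and 15 in pair 3. The median was 0.16 without CSA 2 and 0.92 without CSA 1. ALB, which encodes albumin, was at 144, 127 and 167 CPM in DMSO and at 119, 266 and 223 in CSA. The summed level of the list was 335, 297 and 380 CPM in DMSO and 285, 563 and 496 in CSA. Of 13 endothelial markers 10 lay below 0 (median -0.26), 1 of them at an unadjusted p under 0.05, but 8 of 13 lay above 0 in pair 2 and the median was 0.0226 without CSA 1 and -0.72 without CSA 2. Their summed level was 41.99, 30.02 and 28.7 CPM in DMSO and 34.96, 35.8 and 29.6 in CSA. Within this list PECAM1 was at 4.17, 1.14 and 1.48 CPM in DMSO and at 1.06, 0.924 and 0.029 in CSA, the last from 1 count. COL1A2, a collagen chain of fibroblasts, was at 9.43, 7.17 and 7.15 CPM in DMSO and at 6.14, 6.43 and 0.811 in CSA. For this gene CSA 3 lay far below the other CSA and DMSO libraries, opposite to COL1A1. It was not the only low library of the series, since TAC 2 and TAC 3 were at 1.22 and 1.198 CPM. TAC 1 was at 7.62 CPM, and VCS at 10.5, 6.54 and 6.796. The part of RNA from other cells in these differences was not tested, and fewer cells of a type cannot be told apart from less RNA per cell in such bulk libraries.

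**Figure D4:**
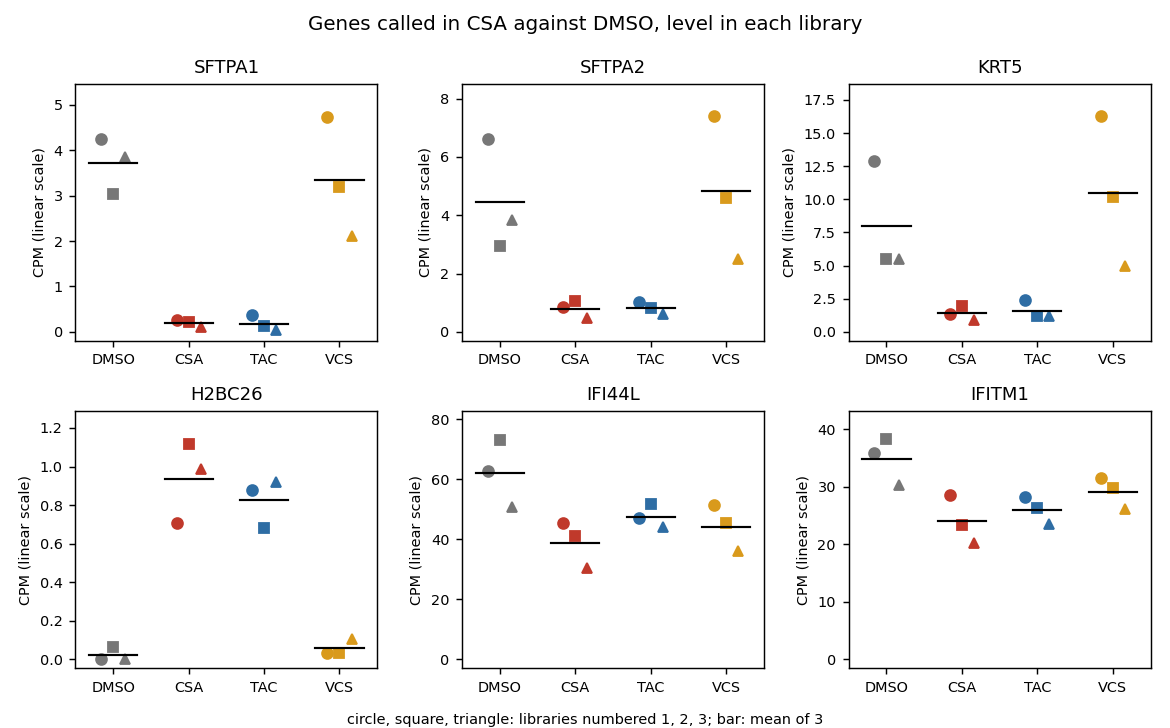
CPM of the 6 genes with an adjusted p under 0.05 in CSA against DMSO, in each of the 12 libraries (circle, square and triangle for the libraries numbered 1, 2 and 3, bar for the mean of 3 libraries, linear axes that include 0). SFTPA1, SFTPA2 and KRT5 are high in DMSO and VCS and low in CSA and TAC, H2BC26 shows the reverse, and IFI44L and IFITM1 have their highest mean in DMSO.

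H2BC26 (chromosome 1) had 2 counts in DMSO, all in library 2, and 93 in CSA, at 0.706, 1.11 and 0.985 CPM (edgeR adjusted p = 0.0286). The ratio of CSA to DMSO in scaled summed counts was 44.6, with an exact 95% interval from counting error alone of 11.99 to 373. The gene was picked for this same difference, and the interval leaves out the spread between libraries, so this interval is no independent check. The filter was met only through CSA and TAC, as VCS held 1, 1 and 3 counts. H2BC26 shares 22.3% of its 31-base words with other genes. Of 28 histone genes tested 17 lay below 0 and 11 above (median -0.02), and H2BC5 was at 5.17, 5.94 and 5.01 CPM in DMSO and at 4.32, 3.34 and 2.67 in CSA (log2 fold change -0.66, edgeR adjusted p = 0.35). H2BC26 passed in 3 of the 12 omissions of a library, those of CSA 3, TAC 1 and VCS 3, and its edgeR adjusted p reached 0.202 in the others. Another gene of large difference, FAM156B, was at 38.1, 25.1 and 55.9 CPM in DMSO and at 10.8, 7.39 and 6.03 in CSA (log2 fold change -2.19, edgeR adjusted p = 0.116), but all of its 31-base words also occur in its copy FAM156A. DDR2, a collagen receptor, was at 1.34, 1.05 and 1.52 CPM in DMSO and at 2.26, 2.68 and 3.42 in CSA (log2 fold change 1.09, edgeR adjusted p = 0.144). ZNF300, a zinc finger gene, was at 10.1, 9.84 and 9.20 CPM in DMSO and at 5.44, 5.70 and 7.45 in CSA (log2 fold change -0.67, edgeR adjusted p = 0.225).

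VCS is an analog of CSA with a modified side chain at the first residue of the ring, and was compared with it directly at 100 nM and 24 h. Of 19784 genes 6 differed (0.0303%): SFTPA1, SFTPA2, KRT5, KRT14 and LTF were lower in CSA, and ENSG00000196656 was higher. LTF and the unnamed gene were named after their values were seen. SFTPA1 stood at 4.74, 3.18 and 2.11 CPM in VCS (log2 of CSA over VCS -4.02, SE 0.38, edgeR adjusted p = 0.00362), and the edgeR adjusted p was 0.00811 for SFTPA2, 0.00463 for KRT5 and 0.0226 for KRT14. SFTPA1 passed in all 12 omissions of a library and without the block. Without the block SFTPA2, KRT5 and KRT14 did not pass (edgeR adjusted p 0.189, 0.189 and 0.202). SFTPA2 did not pass without CSA 1 or VCS 2, KRT5 without VCS 2, and KRT14 without DMSO 3 or any of the first 2 libraries of each inhibitor (edgeR adjusted p up to 0.0976, 0.0677 and 0.25). For IFI44L the difference was -0.19 (SE 0.09, edgeR adjusted p = 0.8) and for IFITM1 -0.28 (SE 0.08, edgeR adjusted p = 0.753). The median over the ATF4 targets was 0.04 in CSA over VCS and -0.08 over the interferon list, and no member of either passed. Such a miss does not show that CSA and VCS act alike.

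Against TAC, a macrolide that blocks calcineurin through FKBP proteins, 65 genes differed (0.329%), 34 higher in CSA (0.172%) and 31 lower (0.157%). The count was 6 without the block, 5 without TAC 2 and 252 without CSA 3. SFTPA1 was at 0.363, 0.119 and 0.0307 CPM in TAC, the last value from 1 count, and its difference between CSA and TAC was 0.26 (SE 0.54, edgeR adjusted p = 0.863). H2BC26 was at 0.877, 0.683 and 0.922 CPM in TAC (edgeR adjusted p = 0.898). ADM2 was higher in CSA than in TAC (log2 0.72, SE 0.11, edgeR adjusted p = 0.0201), as were TGFB1, the gene of the profibrotic cytokine (log2 0.41), and RELB, an NF-kB subunit (log2 0.47). ID1 and ID3, helix-loop-helix repressors downstream of BMP signaling, were lower in CSA than in TAC, with ID1 at 48.3, 36.9 and 27.5 CPM in CSA and at 93.2, 93.5 and 86.7 in TAC. ID1 and ID3 passed in all 12 omissions and without the block (edgeR adjusted p up to 0.0101 and 0.0468 over the omissions). Without the block ADM2, TGFB1 and RELB did not pass (edgeR adjusted p 0.0832, 0.494 and 0.538). None of the 3 passed without CSA 2 or without any 1 of the TAC libraries, nor without DMSO 3, and TGFB1 also failed without DMSO 1 or DMSO 2 and RELB without DMSO 1 (edgeR adjusted p up to 0.148, 0.19 and 0.223). Against DMSO ID1 and ID3 had log2 fold changes in CSA of -0.09 (95% interval -0.32 to 0.14) and -0.16. The median of CSA over TAC was 0.16 for the ATF4 targets and -0.07 for the interferon list, with no member past the threshold.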

How the data were processed

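Poly(A) RNA was sequenced from 12 libraries, per the labels' protocols with in-line UMIs and ERCC spike-ins. Salmon and GRCh38 are named in the submitters' processing notes, without versions, and no source states whether UMIs were collapsed, so counting intervals cover counting error only. The deposited table holds expected counts per gene, which are whole numbers in the table, with no source on how they were rounded, and 0 of its sample columns lacked a label. filterByExpr (minimum count 10), TMM scaling and edgeR 4.0.16 (R 4.3.3) quasi-likelihood tests followed, with group and replicate number as terms over all 12 libraries and 6 residual degrees of freedom. P-values are two-sided with Benjamini-Hochberg adjustment over 19784 genes. CPM are scaled by library size, pair differences use a prior count of 2, and intervals are 95%. Members and the 33 lists were chosen with earlier results of these data known, so lists carry counts and medians but no test. Named genes were a fixed set of 9, genes past the threshold, the 10 smallest p-values per direction at a mean log2 CPM of 1 or more, and from each list the first genes written and the smallest p in each direction. H2BC26, SFTPA1 and others past the threshold were named at any level. Some genes under this rule are not reported here. Promoters came from RefSeq, chromosomes and 31-base words from GENCODE on GRCh38. Alternatives were no block, RLE factors, no filter, DESeq2 1.42.0, fewer libraries, robust estimation and each library left out.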

Additional observations from a re-analysis of the deposited data

Results flagged for a closer look

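The level in CSA differed from that in another inhibitor of the same dose and time, by an edgeR adjusted p under 0.05 of the difference itself, for 11 of the genes named here. Against TAC the log2 difference was -1.31 for ID1, -0.74 for ID3, 0.41 for TGFB1, 0.72 for ADM2, 0.47 for RELB, -0.39 for EDN1 and -0.38 for BNIP3, a mitophagy receptor gene. Against VCS it was -4.02 for SFTPA1, -2.79 for KRT5, -2.55 for SFTPA2 and -3.45 for KRT14. EDN1 and BNIP3 passed in only 2 of 12 omissions of a library and not without the block (edgeR adjusted p 0.503 and 0.494); EDN1 passed without CSA 3 or VCS 3, and BNIP3 without CSA 1 or CSA 3. Of these genes SFTPA1, SFTPA2 and KRT5 also passed against DMSO. In groups of 3 no single library was tested for standing apart.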

How the results depend on the processing

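Support for the numbers as pairs of CSA and DMSO libraries was weak. Same-numbered deviations correlated at 0.10 to 0.22, other combinations at -0.17 to 0.02. Deviations from a group mean cancel out within the group, so part of this contrast is built in. Between CSA and the other inhibitors the numbers were not shown to pair: CSA 2 and TAC 2 correlated at 0.00694, and CSA 1 and VCS 1 at 0.091, CSA 2 and VCS 2 at 0.077 but CSA 1 and VCS 2 at 0.14. Without the replicate block 2 genes passed in place of 6 (1 higher and 1 lower, SFTPA1 and H2BC26), and 741 in place of 2254 had an unadjusted p under 0.05. In CSA against TAC 6 passed in place of 65 (2 higher, 4 lower), and in CSA against VCS 2 in place of 6 (1 lower). RLE size factors and robust estimation kept the same 6 genes. Without a filter on low counts edgeR called 664 (409 higher, 255 lower), with an infinite prior for the spread, and with the newer quasi-likelihood method on the same genes 16 (5 and 11). DESeq2 called 57 (30 and 27). A fit of only CSA and DMSO called 3 with the block (1 higher, 2 lower) and 2 without (0 and 2). Leaving out the libraries numbered 3 called 6 (0 higher, 6 lower), of which SFTPA1 and KRT5 were among the 6 above. It called 42 against TAC (18 higher, 24 lower) and 15 against VCS (9 higher). The newer method with the filter called 7, adding KRT14. The newer method was added after seeing the data, and edgeR's default was kept once both counts were known.

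Leaving out 1 library at a time gave 1 to 8 genes against DMSO (0 to 2 higher, 1 to 6 lower), 5 to 252 against TAC (0 to 140 higher, 5 to 112 lower) and 1 to 13 against VCS (0 to 2 higher, 1 to 12 lower). The lowest came without DMSO 1 against DMSO, without TAC 2 against TAC and without VCS 2 against VCS, and the highest without CSA 3, CSA 3 and VCS 1. The cause was not tested.

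Of 131 named genes 110 kept their direction in all 22 alternatives, and 21 that passed in none of the fits that turned them changed sign in 46 of 2880 fits. The log2 ranges over single omissions were ABCB1 (-0.067 to 0.27), ACTB (-0.16 to 0.0226), ATF4 (-0.0176 to 0.19), CA9 (-0.49 to 0.18), CCNB1 (-0.14 to 0.10), CDH5 (-0.76 to 0.0226), CEBPB (-0.25 to 0.0163), CLDN1 (-0.0328 to 0.21), EDN1 (-0.0555 to 0.0219), EDNRA (-0.14 to 0.31), ELOVL6 (-0.0798 to 0.0713), FKBP1A (-0.16 to 0.0143), ID1 (-0.24 to 0.0143), MKI67 (-0.0362 to 0.28), NFATC1 (-0.19 to 0.23), PDGFRA (-0.70 to 0.14), PPIB (-0.0548 to 0.0312), PPIF (-0.0235 to 0.0818), PTGS2 (-0.25 to 0.12) and WT1 (-0.24 to 0.36). Other fits turned WT1 (-0.0571), NFATC1 (-0.14), CEBPB (0.0119), FOXC1 (0.0111), EDNRA (-0.13), PDGFRA (0.0973) and CLDN1 (-0.0198) without the libraries numbered 3, and, with only CSA and DMSO fitted, WT1 (-0.00197) and CCNB1 (-0.00348) with the block and WT1 (-0.0039) and NFATC1 (-0.00191) without.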
